A study of Rattus norvegicus with 97 samples.

Results

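Transcript levels were measured in the shell of the nucleus accumbens of HAD2 rats, bred for high alcohol drinking, and of LAD2 rats, bred for low alcohol drinking. The members are the 20 arrays whose titles name this pair of lines, 10 from HAD2 and 10 from LAD2, out of 97 arrays in the series. Each array holds the RNA of 1 animal. The other arrays come from 8 lines of 4 further pairs (HAD1 and LAD1, P and NP, AA and ANA, sP and sNP) and enter here only where a difference is set against that of HAD1 and LAD1, or where a level is followed across lines. No treatment separates the HAD2 and LAD2 animals in the labels, which give neither their sex, their age nor any exposure to alcohol.

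The nucleus accumbens lies in the ventral striatum, and its shell is known for its role in reward and motivated behaviour. Most of its neurons are medium spiny neurons, which release GABA, carry dopamine receptors and receive glutamate from cortex, amygdala and hippocampus. HAD and LAD rats were derived from a genetically heterogeneous stock by selection in opposite directions, and the replicate selection gave HAD1 and LAD1. HAD2 and LAD2 are 1 line each, so that selection for drinking and chance changes of allele frequency during breeding cannot be told apart in this pair. P-values measure the spread between animals of these lines and not the spread between independently bred lines.

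The values are log2 RMA signals, in which 1 unit is a 2-fold difference, and differences are given as HAD2 minus LAD2 with their standard error (SE). A probe set, the group of short probes that reads 1 stretch of a transcript, is called where limma's test gave an adjusted p under 0.05 (Benjamini-Hochberg over 31042 probe sets). The arrays of the lines were compared in 2 summaries. Array medians ran from 7.91 to 7.99 in HAD2 and from 7.91 to 7.99 in LAD2 (difference 0.00265, two-sided permutation test with 100000 resamples, p = 0.829, adjusted p = 0.829 over 2 tests). RMA puts arrays on a common scale, so that near-equal medians were largely set in advance. They do not show that the arrays were alike. The Gapdh 3' minus 5' signal, a measure of RNA integrity and labelling, ran from 2.299 to 3.60 in HAD2 and from 2.36 to 3.19 in LAD2 (difference 0.0806, same test, p = 0.655, adjusted p = 0.829). On the 50 probe sets with the clearest line difference among the other 19 animals, every animal lay near its own line: with the LAD2 median at 0 and the HAD2 median at 1, HAD2 animals scored from 0.972 to 1.01 and LAD2 animals from -0.0273 to 0.0341.

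Markers of medium spiny neurons were present in both lines and none of their 39 probe sets was called, against 4.6% of all probe sets. An unadjusted p under 0.05 (limma) was found at 6 of them, and at 4361 of all 31042. Differences were positive at 29 and negative at 10, with a median of 0.08. The dopamine receptor gene Drd1 read from 13.25 to 13.84 in HAD2 and from 13.06 to 14.08 in LAD2, and the enkephalin precursor gene Penk from 13.71 to 14.13 and from 13.52 to 14.23. The lines overlapped almost wholly for both genes. LAD2 animals 13, 16 and 18 stood apart in tissue markers. They had a spiny neuron minus pallidal marker index (the mean of spiny neuron markers less the mean of genes typical of pallidum, septum or basal forebrain) of 3.95, 3.57 and 3.82, below the lowest HAD2 animal at 4.36. LAD2 animal 16 also had the lowest median correlation with the other arrays, 0.986, where HAD2 arrays had 0.990 to 0.993. Counts of called cell type markers are therefore given with and without these 3 arrays. Without them the median difference of the spiny neuron markers was -0.09, and again none was called.

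HAD2 and LAD2 differed at 1428 of 31042 probe sets (4.6%). Of these, 658 were higher in HAD2 and 770 were lower. The median size of a called difference was 0.39, against 0.06 over all probe sets, and 144 called differences reached 2-fold, 76 of them higher and 68 lower in HAD2. In 285 called probe sets (0.918% of those tested) the lines did not overlap, so that the lowest animal of the higher line lay above the highest animal of the lower line. Called probe sets with 1 gene symbol belonged to 812 of 14217 genes. Without the 3 LAD2 arrays low on the marker index 1147 probe sets were called, 999 of which were among the 1428.

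**Figure D1:**
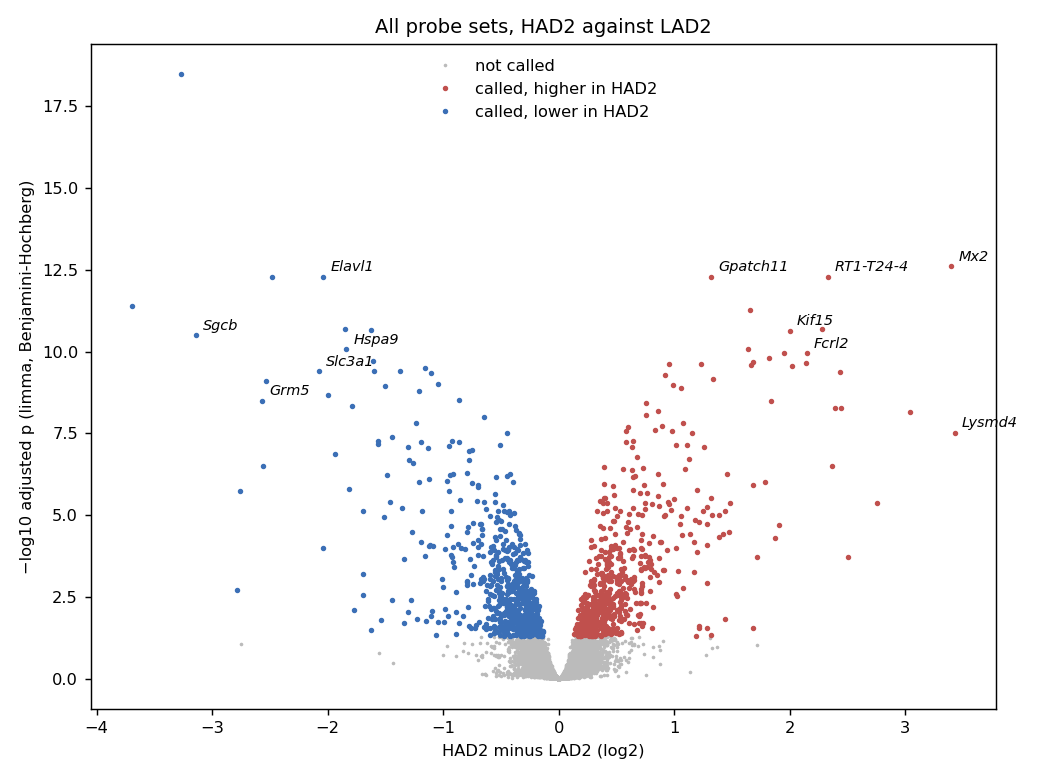
Each point is 1 of 31042 probe sets, with the HAD2 minus LAD2 difference (log2) on the horizontal axis and -log10 of limma's adjusted p on the vertical axis. Red points are the 658 called higher and blue points the 770 called lower in HAD2, and the named genes reach 3.43 (Lysmd4) and -3.14 (Sgcb).

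Differences of 4-fold or more were found at 26 called probe sets, of which 16 carried no established single symbol and are counted without a name. Among the named genes without overlap, the largest difference towards HAD2 after Lysmd4, described below, was that of Mx2, which encodes a dynamin-like GTPase induced by interferon. Mx2 read 7.72, 8.69 and 8.98 in HAD2 (lowest, median and highest animal) and 4.75, 5.15 and 5.401 in LAD2. Every HAD2 animal was therefore above every LAD2 animal, by more than 2 log2 units. The difference was 3.40 ± 0.136 (SE, n = 10 and 10, limma adjusted p = 2.47e-13), or 10.6-fold. The second Mx2 probe set differed by 0.11 (adjusted p = 0.828), with HAD2 from 6.81 to 8.13 and LAD2 from 7.20 to 7.68.

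RT1-T24-4, a non-classical major histocompatibility complex (MHC) class I gene, read 7.61, 8.20 and 8.66 in HAD2 and 5.59, 5.83 and 6.31 in LAD2, a difference of 2.33 ± 0.101 (limma adjusted p = 5.07e-13). Fcrl2, an Fc receptor-like gene of immune cells, read 7.63, 8.24 and 9.0005 in HAD2 and 6.001, 6.16 and 6.25 in LAD2, a difference of 2.148 ± 0.127 (limma adjusted p = 1.13e-10). Both genes separated the lines completely, and LAD2 animals lay within 1 log2 unit of each other. Kif15, a kinesin motor of the mitotic spindle, read 8.46, 8.87 and 9.13 in HAD2 and 6.40, 6.84 and 7.32 in LAD2 (difference 2.00 ± 0.108). Ctdspl, a small phosphatase of the RNA polymerase II C-terminal domain, read 8.95, 9.29 and 10.05 in HAD2 and 6.88, 7.44 and 7.70 in LAD2 (difference 1.95 ± 0.116). Again no animal of one line fell in the range of the other. Of the 5 Ctdspl probe sets this was the called one.

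Further genes were higher in HAD2 by less than 3-fold. Ano5, an anoctamin of intracellular membranes, differed by 1.46 ± 0.147, the intermediate filament gene Sync by 1.44 ± 0.174, and Wtap, a subunit of the complex that writes the N6-methyladenosine (m6A) mark on RNA, by 1.383 ± 0.171. The second probe set of Wtap differed by 0.08 (limma adjusted p = 0.82) and was not called, nor was the second of Sync. Gpatch11, a G-patch protein of the spliceosome, read 9.56, 9.82 and 10.08 in HAD2 and 8.30, 8.51 and 8.59 in LAD2. Its spread within a line was narrow, and the difference of 1.318 ± 0.0572 had an adjusted p of 5.07e-13 with limma, as small as that of RT1-T24-4. Pank3, a pantothenate kinase at the first step of coenzyme A synthesis, differed by 1.281 ± 0.152 at one probe set and by 0.28 ± 0.0391 at another, both without overlap, while 2 further probe sets were not called. The RNA helicase genes Ddx42 and Dhx36 differed by 1.17 ± 0.1999 and 1.02 ± 0.150, at 1 of 2 and 1 of 5 probe sets. The remaining genes among the 30 largest included the apelin precursor Apln (0.75), the heme synthesis enzyme Uros (0.84), the intraflagellar transport gene Ift140 (0.86) and the synemin gene Synm (0.71), down to 0.69 for P2ry12. Apln and Uros were called at 1 of 2 probe sets and Synm at 1 of 3.

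The largest named difference towards LAD2 was at Sgcb, which encodes beta-sarcoglycan, a membrane protein of the dystrophin complex. Sgcb read 6.66, 7.46 and 7.59 in HAD2 and 9.45, 10.57 and 10.997 in LAD2. The nearest animals of the lines were still more than 1.5 log2 units apart, and the difference was -3.14 ± 0.174 (limma adjusted p = 3.21e-11), which is 8.84-fold lower in HAD2. The other 2 Sgcb probe sets did not share it, as given below. Slc3a1, the heavy chain of a cystine and dibasic amino acid transporter, read 10.24, 10.48 and 10.72 in HAD2 and 11.92, 12.52 and 13.12 in LAD2 (difference -2.08 ± 0.135, limma adjusted p = 3.97e-10). Elavl1, an RNA-binding protein that stabilises messenger RNA, read 9.50, 9.74 and 10.16 in HAD2 and 11.48, 11.83 and 12.16 in LAD2 (difference -2.04 ± 0.0864, limma adjusted p = 5.07e-13). For these genes too the lines were fully separated. A further Elavl1 probe set was called in the same direction, with a difference of -0.35 ± 0.0802, and the remaining one differed by 0.18 (limma adjusted p = 0.387) and was not called.

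Hspa9, a mitochondrial chaperone, read 7.53, 7.81 and 8.69 in HAD2 and 9.58, 9.73 and 9.95 in LAD2 (difference -1.84 ± 0.107, limma adjusted p = 8.54e-11). Trak2, an adaptor that ties mitochondria to kinesin, read 9.83, 10.32 and 11.44 in HAD2 and 11.95, 12.16 and 12.47 in LAD2 (difference -1.79 ± 0.135). Isca1, of iron-sulphur cluster assembly, and Oxsm, of mitochondrial fatty acid synthesis, differed by -1.27 ± 0.172 and -1.13 ± 0.102. Each of these genes separated the lines, yet only 1 of 4 Hspa9, 1 of 2 Trak2 and 1 of 2 Isca1 probe sets was called. In the list for mitochondrial transport and dynamics 2 of 33 probe sets were called (6.06%), Trak2 and the fission GTPase gene Dnm1l, which was higher in HAD2 by 0.45 ± 0.0767. Of the listed 101 probe sets for oxidative phosphorylation, 1 was called (0.99%): the complex I assembly factor Ndufaf4, 0.38 ± 0.0676 higher in HAD2.

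Other genes at least 2-fold lower in HAD2 without overlap included the intramembrane protease Sppl2a (-1.85), the ADP-ribosyltransferase Tiparp (-1.82), the riboflavin transporter Slc52a2 (-1.69), the endosomal GTPase gene Rab22a (-1.56), the membrane progestin receptor gene Paqr8 (-1.56), the phosphatase and actin regulator Phactr3 (-1.44), the ubiquitin ligase Traf6 (-1.30) and the lipid transfer gene Stard10 (-1.30). For most of them 1 probe set carried the call: 1 of 4 for Sppl2a and Paqr8, 1 of 3 for Rab22a, 1 of 2 for Tiparp, Slc52a2, Phactr3 and Stard10, and 2 of 4 for Traf6. All 60 probe sets chosen as the 30 largest in each direction kept their call in every alternative that held them. Their size and lack of overlap in the same arrays made this likely from the start. The plot of animals by gene shows 16 of the 60.

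**Figure D2:**
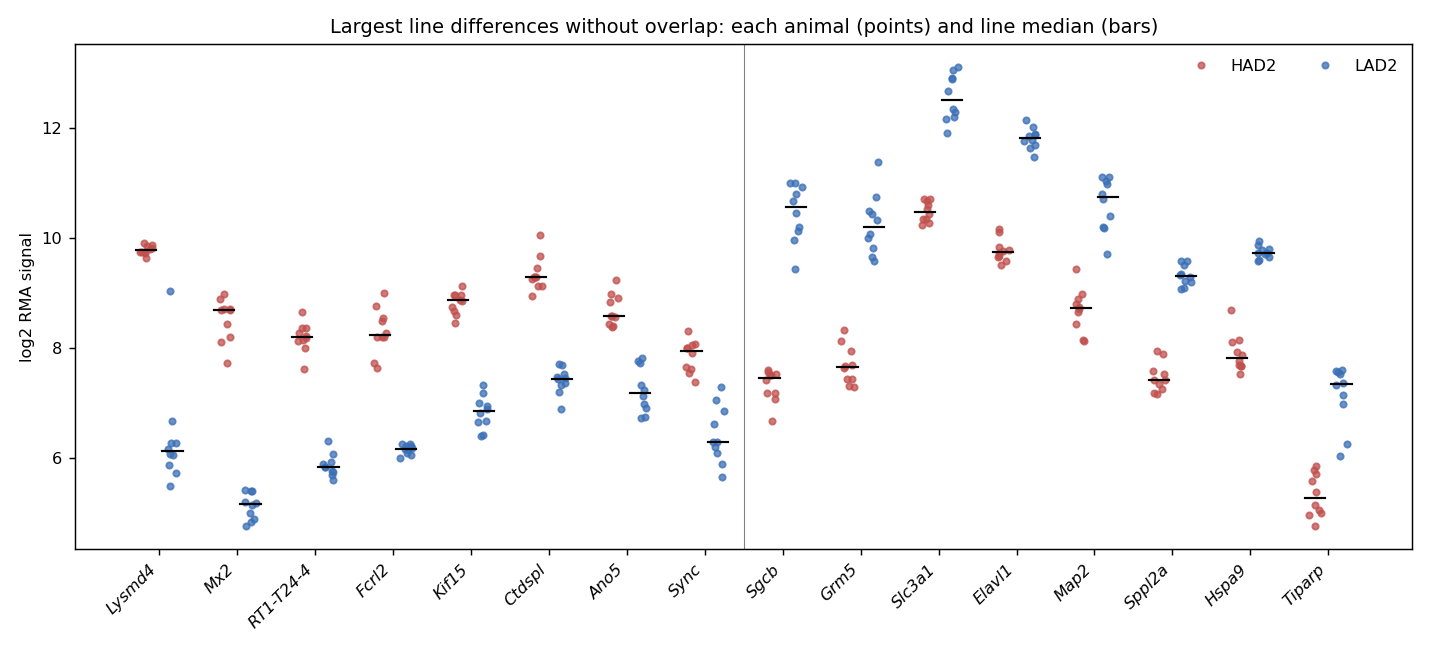
The vertical axis is the log2 RMA signal and each point is 1 animal (red HAD2, blue LAD2, 10 each), with a bar at the median of the line. The 8 genes left of the grey line were higher and the 8 on the right lower in HAD2, and LAD2 animal 13 reads 9.04 for Lysmd4 while the other LAD2 animals lie between 5.48 and 6.66.

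Probe sets of a gene often gave different answers. Of 4525 genes with 2 or more probe sets, 385 had at least 1 call, and in 338 of these exactly 1 probe set was called. Every probe set was called in the same direction in 19 genes (4.94% of the 385), 11 higher and 8 lower in HAD2. RT1-S3, another MHC class I gene, was higher at 4 of 4 probe sets (0.49 to 0.98), and Zfp61, a zinc finger gene, at 3 of 3 (0.74 to 0.81). Glt8d2, a glycosyltransferase gene, was higher by 1.13 ± 0.155 and 1.88 ± 0.262, and Lyve1, a hyaluronan receptor of lymphatic vessels and border macrophages, by 0.76 ± 0.161 and 0.76 ± 0.126. The other genes of this kind were Gpatch11, Rorb, P2ry12, Iqcc, Zfp612, Hacd1 and Rb1cc1.

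Among the genes lower at every probe set, Grm5 had the largest difference. It encodes metabotropic glutamate receptor 5, a receptor coupled to Gq that is dense on medium spiny neurons. The first probe set read 7.29, 7.65 and 8.33 in HAD2 and 9.59, 10.20 and 11.38 in LAD2, and the other 6.44, 6.70 and 7.12 in HAD2 and 7.34, 7.97 and 8.54 in LAD2. At both, every HAD2 animal lay below every LAD2 animal. The differences were -2.57 ± 0.189 (limma adjusted p = 3.16e-09), 5.93-fold lower in HAD2, and -1.26 ± 0.122. Rtel1, a DNA helicase of telomere maintenance, was lower at 3 of 3 probe sets (-0.86, -0.65 and -0.31). Nit1 (-1.16 and -0.52), the m6A reader Ythdf2 (-1.16 and -0.43), the lysosomal sialidase Neu1 (-0.39 and -0.38), Tex261, Harbi1 and Dpy19l1 completed the group.

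In 13 genes probe sets were called in opposite directions. Lysmd4, which encodes a membrane protein with a LysM domain, was the widest. The first probe set read 9.63, 9.78 and 9.91 in HAD2 and 5.48, 6.11 and 9.04 in LAD2 (difference 3.43 ± 0.289, limma adjusted p = 3e-08). The 3 others were lower in HAD2, by -1.62 ± 0.0872, -0.76 ± 0.0799 and -0.74 ± 0.106. Sgcb had -3.14 at one probe set, 0.42 ± 0.0692 at a second and 0.07 ± 0.067, not called, at the third. The kinase gene Rock2 had -1.19 ± 0.104 and 0.94 ± 0.109, and the corepressor gene Ncor1 -1.10 ± 0.0725 and 0.19 ± 0.0419. The cause of these disagreements was not tested, and a direction for the whole gene cannot be given for these 13 genes.

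**Figure D3:**
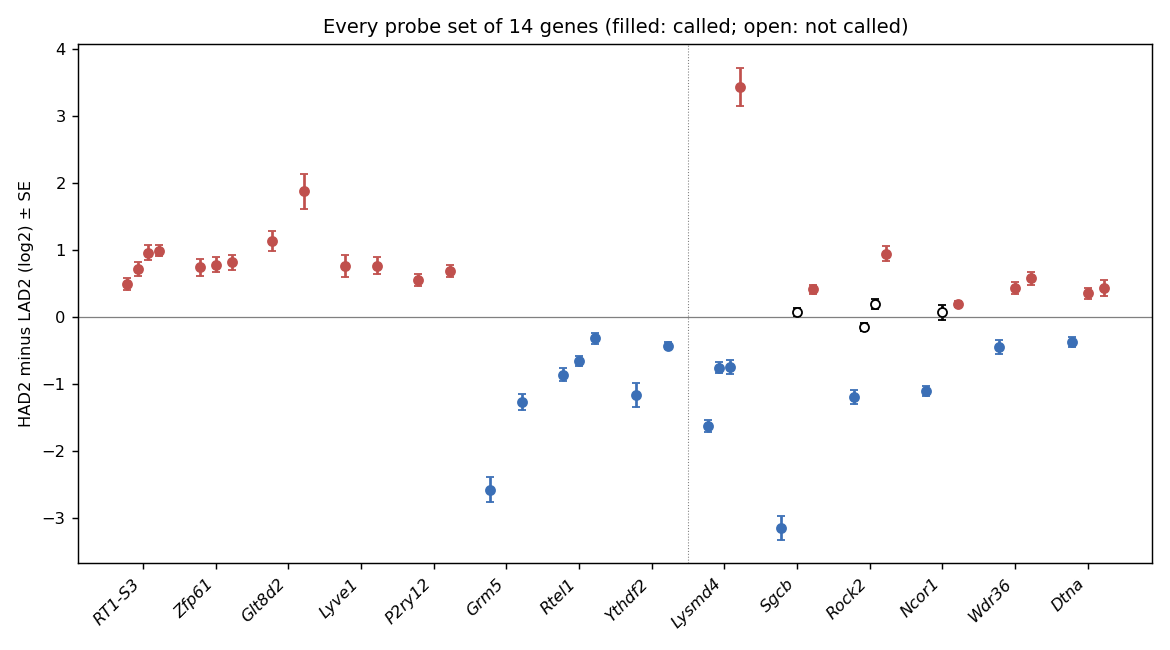
The vertical axis is the HAD2 minus LAD2 difference (log2) with its SE, and each point is 1 probe set, filled where called and open where not. In the 8 genes left of the dotted line every probe set was called one way, and in the 6 on the right called probe sets lie on both sides of 0, most widely in Lysmd4 from -1.62 to 3.43.

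Genes of glutamate signalling were called in both directions. Of 27 probe sets for ionotropic receptors 2 were called (7.41%), both higher in HAD2: Grin3a, an NMDA receptor subunit, and Gria2, the AMPA receptor subunit that limits calcium entry. Grin3a read 7.02, 7.76 and 8.40 in HAD2 and 6.09, 6.40 and 7.20 in LAD2, ranges that overlap only slightly (difference 1.17 ± 0.167, limma adjusted p = 6.72e-05). Gria2 differed by 0.15 ± 0.0404, and its call was lost when any of 4 animals was left out and with all 97 arrays in the fit. The fit of all 97 arrays leaves a difference as it is and takes its SE from the spread within all the lines. Of 12 probe sets for metabotropic receptors the 2 of Grm5 were called (16.7%). Grm3 differed by -0.07 ± 0.0549 and Grm2 by 0.03 ± 0.0871, neither of them called.

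Among 73 probe sets for postsynaptic scaffolds and kinases, 3 were higher and 2 lower in HAD2 (6.85%). Map2, the microtubule protein of dendrites, read 8.13, 8.73 and 9.43 in HAD2 and 9.71, 10.76 and 11.12 in LAD2 at the called one of its 2 probe sets (difference -1.93 ± 0.180, limma adjusted p = 1.38e-07), with no overlap. Camk2a, the alpha subunit of calcium/calmodulin kinase II, differed by -0.91 ± 0.150 at 1 probe set, with HAD2 from 7.40 to 8.14 and LAD2 from 7.96 to 9.76. That Camk2a probe set averaged 5.25 log2 units lower in the 4 HAD and LAD lines than in the other 6 lines, and 688 probe sets differed by 2 units or more between these sets of lines. Differences are therefore taken within pairs. The anchoring protein gene Akap5 (1.02 ± 0.202), the adhesion gene Nrxn3 (0.30 ± 0.0740) and the scaffold gene Shank2 (0.21 ± 0.0444) were higher in HAD2, although the Shank2 call was lost with all 97 arrays in the fit (limma adjusted p = 0.309). So were 2 glutamate and glutamine transporters, Slc1a3 (0.79 ± 0.153) and Slc38a1 (0.72 ± 0.0988), of 22 probe sets for transport and metabolism (9.09%).

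Counts for the other transmitter systems are read against the 4.6% called over all probe sets. None of 33 probe sets for the GABA system, 14 for opioids or 23 for serotonin was called with limma, while 5, 1 and 1 of them had an unadjusted p under 0.05. Over all probe sets 4361 of 31042 had an unadjusted p under 0.05, and the unadjusted counts are read against that share. The GABA-A receptor subunit gene Gabra2 read 10.58, 10.91 and 11.28 in HAD2 and 10.002, 10.52 and 11.13 in LAD2 (difference 0.37 ± 0.117, limma adjusted p = 0.0769). The ranges overlapped and the difference was not called. In the dopamine list 1 of 24 probe sets (4.17%) was called, the decarboxylase gene Ddc at -0.39 ± 0.0707. In the acetylcholine list 1 of 19 (5.26%) was called, the choline transporter gene Slc5a7 at -0.36 ± 0.0863. The Slc5a7 call was lost without LAD2 animals 13, 16 and 18 (limma adjusted p = 0.0579) and with all 97 arrays in the fit (0.299). Of 55 probe sets for neuropeptides and their receptors (3.64% called), Ntsr2, a neurotensin receptor of astrocytes, was lower by -0.28 ± 0.0641 and the peptide gene Adcyap1 by -0.19 ± 0.0543. The Adcyap1 call was lost when any of 13 of the 20 animals was left out, and with all 97 arrays in the fit its limma adjusted p was 0.875.

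Presynaptic and activity-dependent genes were not called either: 0 of 52 probe sets for vesicle release, 0 of 38 for immediate early genes and 0 of 65 for neurotrophic factors and receptors passed limma's threshold. An unadjusted p under 0.05 was found at 6, 1 and 7 of them, against 4361 of 31042 over all probe sets. Of 126 potassium channel probe sets 4 were called (3.17%), all higher in HAD2. They were the channel subunit genes Kcnq5 (0.45 ± 0.0934), Kcna2 (0.36 ± 0.0827) and Kcnc2 (0.31 ± 0.0811) and the channel-interacting calcium sensor gene Kcnip3 (0.44 ± 0.0683). Kcnq5 separated the lines, by 12.40 for the lowest HAD2 animal against 12.39 for the highest LAD2 animal. With all 97 arrays in the fit, 1 of these 4 calls remained, that of Kcnip3. For cyclic AMP signalling 3 of 66 (4.55%) were called: the cyclase gene Adcy9 was higher (0.59 ± 0.139), and the kinase subunit gene Prkacb (-0.34 ± 0.0866) and the transcription factor gene Crem (-0.54 ± 0.0909) were lower. The Prkacb call was lost with all 97 arrays in the fit (limma adjusted p = 0.138).

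Interferon-induced genes gave 3 calls in 49 probe sets (6.12%), all higher in HAD2. Beside Mx2 these were Ifi27, which read 9.85, 10.21 and 11.06 in HAD2 and 8.53, 8.996 and 9.61 in LAD2 without overlap (difference 1.212 ± 0.155, limma adjusted p = 1.59e-05), and the immunity-related GTPase gene Irgm, which read 7.21, 7.40 and 7.62 in HAD2 and 6.53, 7.04 and 7.25 in LAD2 with a slight overlap (difference 0.43 ± 0.0773). Others were not called: Mx1 differed by -0.05 ± 0.0458 and the ubiquitin-like Isg15 by 0.06 ± 0.0753, and the median of the list was 0.05, against 0.00 over all probe sets. The share called was near that of all probe sets.

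Interferon acts on such genes through a response element with the core GAAANNGAAA (N is any base). The 250 bases before the start of the called genes Ifi27 and Irgm are shown because both hold it, on the gene's own strand, with the matches in capitals. No promoter entry was found for Mx2, the remaining called gene of the list, so its promoter was not searched. They are RefSeq sequences of the GRCr8 assembly. Ifi27 lies at chr6:128355062-128355311 on the plus strand and Irgm at chr10:33742579-33742828 on the minus strand.
Ifi27: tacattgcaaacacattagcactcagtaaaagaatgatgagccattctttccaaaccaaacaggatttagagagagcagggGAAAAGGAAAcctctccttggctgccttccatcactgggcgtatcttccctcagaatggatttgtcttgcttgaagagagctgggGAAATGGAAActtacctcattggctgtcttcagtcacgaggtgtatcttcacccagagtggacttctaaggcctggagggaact
Irgm: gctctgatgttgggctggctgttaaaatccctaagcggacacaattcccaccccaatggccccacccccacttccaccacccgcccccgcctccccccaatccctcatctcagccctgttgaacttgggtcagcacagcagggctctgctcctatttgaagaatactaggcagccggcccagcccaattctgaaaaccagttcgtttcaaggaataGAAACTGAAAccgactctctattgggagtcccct
The element was searched on both strands and occurred in 1140 of 33469 rat promoters (3.41%). It was found in 28 of 799 promoters of genes with a called probe set (3.504%) and in 354 of 13242 promoters of all measured genes (2.67%). Of the 29 interferon response genes with a promoter entry 19 held it, most of them without a called difference between the lines. A match is a description of the letters and not a measured binding site.

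MHC and antigen presentation genes had the highest share of calls among the lists with more than 40 probe sets, 12 of 43 (27.9%), with 6 higher and 6 lower in HAD2. The higher ones were RT1-T24-4, the 4 probe sets of RT1-S3 and the immunoproteasome subunit Psmb8 (0.50 ± 0.112). The lower ones were RT1-M3-1 (-0.46 ± 0.0642, no overlap), the class II chaperone gene RT1-DMb (-0.45 ± 0.0804), the class I regulator Nlrc5 (-0.28 ± 0.0502), RT1-A3 (-0.27 ± 0.0750), RT1-CE5 (-0.26 ± 0.0691) and the peptide-loading gene Tapbp (-0.17 ± 0.0450). The call of RT1-CE5 was lost when any of 10 animals was left out, and that of Tapbp with all 97 arrays in the fit. RT1 genes are near-identical copies whose number and sequence vary between rat strains, so that a probe set can read more than 1 of them and the gene named is uncertain.

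Calls in RNA regulation and metabolism were scattered. In the m6A list 4 of 30 probe sets were called (13.3%): the writer subunits Wtap and Virma (0.18 ± 0.0464) were higher and both Ythdf2 probe sets lower in HAD2. This list, like the others, was chosen with earlier results of these data known, so a high share can be partly built in. Of 55 probe sets for glutathione and antioxidant enzymes 4 were called (7.27%), all lower in HAD2: the peroxiredoxin Prdx5 (-0.27 ± 0.0441), the peroxidase Gpx7 (-0.35 ± 0.0644), Gstcd (-0.37 ± 0.0681) and the glutathione transferase Gsta4 (-0.55 ± 0.123). Of 32 probe sets for alcohol and aldehyde metabolism 2 were called (6.25%), the aldehyde dehydrogenases Aldh4a1 (-0.22 ± 0.0428) and Aldh7a1 (-0.26 ± 0.0674), both lower. In the clock list Rorb, a nuclear receptor, was higher at both probe sets (0.94 ± 0.140 and 0.36 ± 0.0659) and Hlf, a transcription factor with a daily rhythm, at 1 (0.31 ± 0.0693), 3 of 41 in all (7.32%), with the Hlf call lost when all 97 arrays were fitted. Zinc finger genes with the name prefixes Zfp, Zkscan and Zscan gave 10 higher and 7 lower calls in 366 probe sets (4.64%). Genes with the ribosomal name prefixes Rpl and Rps gave 4 calls in 72 probe sets (5.56%), all higher in HAD2. Of these, Rpl26l1 (0.58 ± 0.0489) and Rpl39l1 (0.32 ± 0.0535) are ribosomal protein-like genes, while Rps6ka5 and Rps6ka6 encode kinases. Without genes of the Rps6k kinase family, 2 of 58 probe sets were called (3.45%).

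Markers of 12 cell types and tissues were read beside the 4.6% called over all probe sets. In these bulk samples fewer cells of a type and less RNA per cell cannot be told apart. Oligodendrocyte markers were lower in HAD2: 6 of 29 probe sets were called (20.7%), all lower, and the median difference was -0.28. The called genes were Mbp (-0.28 ± 0.0584), Mobp (-0.30 ± 0.0739), Opalin (-0.50 ± 0.127), Cnp (-0.38 ± 0.101), Ermn (-0.41 ± 0.109) and Mag (-0.44 ± 0.124), all of which encode myelin or mature oligodendrocyte proteins. The mean of the 17 markers ran from 10.46 to 10.80 in HAD2 and from 10.64 to 11.38 in LAD2. This result moved with the arrays low on the marker index: without LAD2 animals 13, 16 and 18, 1 of the 29 was called and the median difference was -0.14. Leaving out animal 12 or animal 18 of LAD2 gave 3 calls, and leaving out animal 19 gave 10. With the marker index as a covariate 8 were called, and with all 97 arrays in the fit 2. The calls of Mag, Ermn and Cnp were each lost when any of 12, 8 and 7 animals was left out.

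Mural and meningeal markers were higher in HAD2 at 5 of 29 probe sets (17.2%), with none lower. Abcc9, a channel subunit of pericytes, read 8.95, 9.16 and 9.34 in HAD2 and 8.40, 8.58 and 8.65 in LAD2 without overlap (difference 0.60 ± 0.0495, limma adjusted p = 2.05e-08), and its second probe set differed by 0.20 ± 0.0494. The collagen gene Col1a2 (0.43 ± 0.0845) and the smooth muscle genes Tagln (0.68 ± 0.184) and Myh11 (0.49 ± 0.134) overlapped between the lines. The calls of Tagln and Myh11 were each lost when any of 11 animals was left out, and with all 97 arrays in the fit those of Tagln, Col1a2 and the second Abcc9 probe set were lost. The mean over the 16 markers ran from 7.27 to 7.69 in HAD2 and from 7.17 to 7.41 in LAD2. Without the 3 LAD2 arrays the median difference stayed at 0.11 but 2 probe sets were called. With all 97 arrays in the fit 2 were called, and with the marker index as a covariate 3. The count was 3 without HAD2 animal 3, 7, 8 or 9, or without LAD2 animal 11, 13, 16, 17 or 19.

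Endothelial markers were called lower at 4 of 18 probe sets and higher at 1 (27.8%). The lower ones were the sialomucin Emcn (-0.41 ± 0.0983), the clotting factor gene Vwf (-0.29 ± 0.0697), the transporter Slco1a4 (-0.24 ± 0.0534) and the tight junction gene Cldn5 (-0.21 ± 0.0556), and the higher one was the efflux pump gene Abcb1a (0.36 ± 0.0669). Without the 3 LAD2 arrays 2 of the 18 were called, with all 97 arrays in the fit 6 and with the index covariate 5, and the median difference was -0.13 with and without them. Among 20 microglia probe sets, both of P2ry12, the ADP receptor of resting microglia, were higher (0.69 ± 0.0846 and 0.55 ± 0.0882), while the complement gene C1qa (-0.44 ± 0.0668) and the fractalkine receptor gene Cx3cr1 (-0.24 ± 0.0552) were lower, so that 4 were called (20%) in opposite directions. Without the 3 arrays 3 were called, with Cx3cr1 at a limma adjusted p of 0.0504. Of 21 astrocyte probe sets Slc4a4 (0.39 ± 0.0736) and Slc1a3 were higher and Ntsr2 lower (14.3%). Without the 3 arrays 2 were called, with Ntsr2 at a limma adjusted p of 0.0564. The call of Slc4a4 was lost with all 97 arrays in the fit (limma adjusted p = 0.202).

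**Figure D4:**
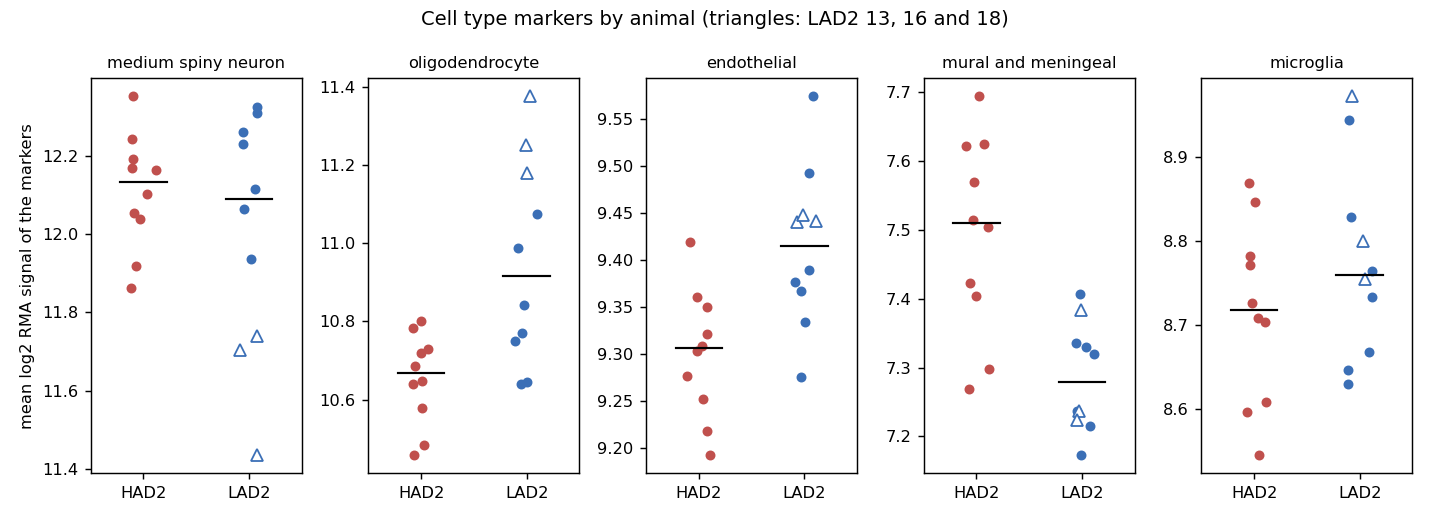
Each point is 1 animal, and the vertical axes give the mean log2 RMA signal over the markers of a cell type with 1 probe set per gene, with bars at the line medians. Open triangles are LAD2 animals 13, 16 and 18, which are the 3 lowest for medium spiny neuron markers and the 3 highest for oligodendrocyte markers, where HAD2 runs from 10.46 to 10.80.

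Called genes lay next to each other more often than the overall share. Of 14217 genes 14167 could be ordered along the RefSeq assembly, and 5.71% of them had a called probe set. The next measured gene was called in 97 of 808 cases after a called gene (12.005%, 95% exact binomial interval 9.84 to 14.4, which treats genes as independent) and in 712 of 13337 cases after a gene not called (5.34%, 4.96 to 5.73). There were 712 stretches of called genes, of which 634 held 1 gene, 65 held 2, 10 held 3, 2 held 4 and 1 held 7. At an adjusted p under 0.01 458 of the 14167 genes were called (3.23%), and the next gene was called in 36 of 457 cases after a called gene (7.88%) and in 422 of 13688 cases after a gene not called (3.08%).

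The longest stretch was Iftap, Traf6, Prr5l, Commd9, Ldlrad3, Fjx1 and Pamr1, all neighbours in that order. Directions were mixed within it. Traf6, a ubiquitin ligase in Toll-like and interleukin-1 receptor signalling, read 7.43, 7.98 and 8.15 in HAD2 and 8.82, 9.21 and 9.80 in LAD2, and Pamr1, a peptidase-domain protein, read 9.88, 9.92 and 10.02 in HAD2 and 8.75, 9.15 and 9.75 in LAD2. Neither overlapped between the lines. Traf6 (-1.30 ± 0.117), Prr5l (-0.87 ± 0.126), Ldlrad3 (-0.57 ± 0.0901) and Commd9 (-0.19 ± 0.0445) were lower in HAD2, and Pamr1 (0.74 ± 0.0865), Iftap (0.43 ± 0.0768) and Fjx1 (0.28 ± 0.0704) were higher. The genes on either side were not called: Lrrc4c differed by -0.04 ± 0.0660, and the glutamate transporter gene Slc1a2 by 0.21 ± 0.0765 and 0.16 ± 0.0740.

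**Figure D5:**
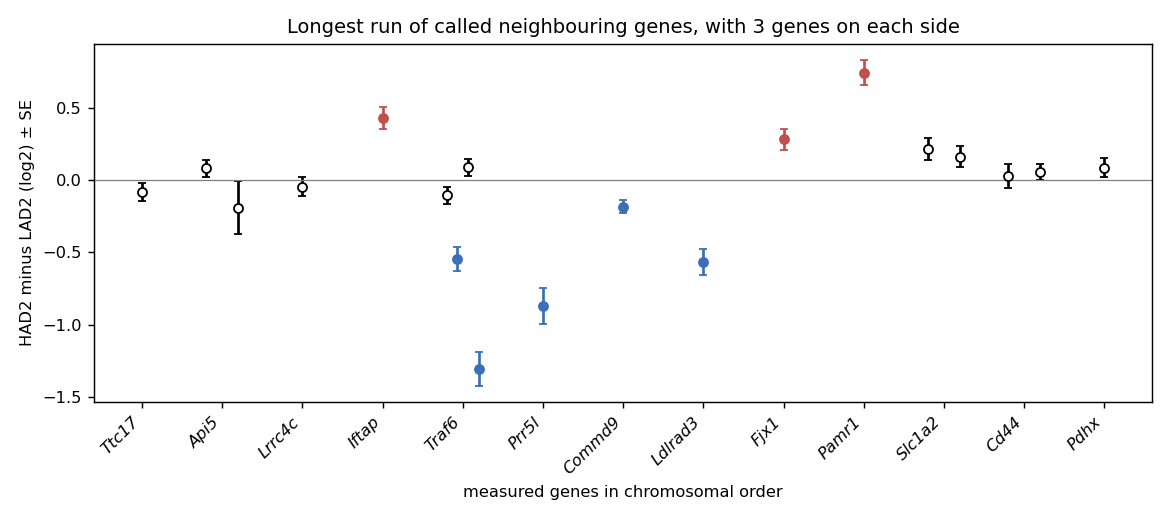
Measured genes are placed in chromosomal order with 3 flanking genes on each side, and the vertical axis is the HAD2 minus LAD2 difference (log2) with its SE. Filled points were called (red higher, blue lower in HAD2) and open points were not, so that the 7 genes from Iftap to Pamr1 stand between uncalled neighbours, with values from -1.30 to 0.74.

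There were 2 stretches of 4 called genes. In the first, Tbx19 (-0.61 ± 0.126) and Sft2d2 (-0.43 ± 0.110) were lower and Tiprl (0.61 ± 0.116) and Gpr161 (0.62 ± 0.137) higher in HAD2. In the second, Alg14 (0.17 ± 0.0443) and the tissue factor gene F3 (0.34 ± 0.0859) were higher and Cnn3 (-0.19 ± 0.0457) and the peroxisomal transporter Abcd3 (-0.20 ± 0.0434) lower. The calls of Alg14 and F3, and that of Fjx1 in the longest stretch, were lost with all 97 arrays in the fit. The direction again differed between neighbours in both.

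The replicate selection, HAD1 against LAD1, gave other differences at many of these genes. The HAD2 minus LAD2 and HAD1 minus LAD1 differences were unequal at 948 probe sets (3.05%, limma interaction test, adjusted p under 0.05), 548 of which were among the 1428 calls of HAD2 and LAD2 (38.4%). Probe sets called in HAD2 and LAD2 pass this test more readily, so that their higher share was partly built in. Mx2 had opposite directions: it was -2.82 ± 0.456 in HAD1 minus LAD1, and the gap between the pairs was 6.22 ± 0.637 (limma adjusted p = 1.19e-12). HAD1 read 4.8 to 8.6 with a median of 5.2 and LAD1 4.9 to 9.0 with a median of 8.8, so that the HAD1 median lay at the level of LAD2 and the LAD1 median at that of HAD2. Sgcb was also opposite, at 1.83 ± 0.396 in HAD1 minus LAD1 (gap -4.98 ± 0.552, limma adjusted p = 2.8e-11). Elavl1 (1.13 ± 0.209, gap -3.17), Galnt1 (1.65 ± 0.281, gap -3.34), Crebl2 (1.60 ± 0.286, gap -3.05) and Ptprj (-1.45 ± 0.249, gap 2.87) also ran opposite ways in the pairs, each at the probe set with its largest gap. The other Galnt1 probe sets differed by 0.10, 0.08 and -0.06 in HAD2 minus LAD2, and none of these was called. Nor were the other Crebl2 and Ptprj probe sets, at 0.07 and -0.02.

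For Lysmd4 and Dguok the difference in HAD1 and LAD1 was near 0. Dguok, a mitochondrial deoxyguanosine kinase, was -2.76 ± 0.303 in HAD2 minus LAD2 and 0.05 ± 0.181 in HAD1 minus LAD1 (gap -2.81, limma adjusted p = 3.51e-15), but HAD2 animal 1 read 8.64 where the other HAD2 animals read 5.55 to 5.91. The second Dguok probe set differed by -0.07 ± 0.0608 in HAD2 minus LAD2 (limma adjusted p = 0.749) and was not called. Lysmd4 was 0.02 ± 0.338 in HAD1 minus LAD1 (gap 3.41). Map2 was also close to 0 in that pair, at -0.01, with a gap of -1.92. Among the genes that went the same way in both pairs, Kif15 was 1.78, Rab22a -1.52, Sync 1.367 and Ifi27 1.01 in HAD1 minus LAD1. Their interaction adjusted p of 0.92, 0.99, 0.99 and 0.95 from limma do not show that the pairs are equal. Grm5 also went the same way, at -1.12 ± 0.247 in HAD1 minus LAD1 at its probe set with the larger difference. There the pairs were unequal (gap -1.45, limma interaction adjusted p = 0.00369). In a further run HAD1 animal 28 and LAD1 animal 37 were left out as lying near the other line of their pair, for which no values are given here. Without them the pairs were unequal at 1145 probe sets (limma interaction test, adjusted p under 0.05). The gap was then 6.99 for Mx2, -5.77 for Sgcb and -3.52 for Elavl1.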

How the data were processed

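RNA of each animal was hybridised to its own Affymetrix 3' array. Per the labels' protocols, 25 ng of RNA was amplified in 2 cycles. The deposited values are log2 signals that the authors summarised with RMA, per the submitters' processing notes; its version and any genome build are not given in the sources used here. They were used without further scaling. RMA shares information between arrays, and a probe set reads a short stretch of a transcript, so a sequence difference between the lines in that stretch, not examined here, can alter its signal. The number of arrays limits the precision.

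The 57 control probe sets were left out and none was called (lowest adjusted p 0.908, limma). HAD2 and LAD2 were compared with limma 3.58.1 in R 4.3.3 (lmFit, eBayes, two-sided, no trend, not robust, no filter on low values), and the pairs with a limma fit of all 97 arrays. The fit was tested on simulated data. Symbols came from the platform annotation: 20826 probe sets had 1 symbol, 436 several and 9780 none, and 20758 of the first matched a RefSeq gene ID with the same symbol. Named genes were the 30 largest calls per direction without overlap, genes whose probe sets all agreed or opposed each other (up to 20 per direction and 12), up to 8 called members per list, up to 8 genes with the largest gap to HAD1/LAD1, and stretches of 4 or more called neighbours. Grm2, Grm3, Gabra2, Mx1, Isg15, Drd1 and Penk were named as uncalled list members, and Slc1a2 and Lrrc4c as neighbours. The members and the 52 lists were chosen with earlier results of these data known. Alternatives covered normalisation, the variance model, array weights, filters, covariates, thresholds and each animal left out.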

Additional observations from a re-analysis of the deposited data

Results flagged for a closer look

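In 24 of 442 checks of a named probe set within a line, 1 animal lay far from the other 9; chance flags about 1 in 20 such groups. Among the largest differences, LAD2 animal 13 read 9.04 for Lysmd4 (others 5.48 to 6.66) and HAD2 animal 1 read 8.64 for Dguok (others 5.55 to 5.91). LAD2 animal 16 was lowest for Pank3 at 5.64, Wdr36 at 9.25 and Kif26b at 9.50, and highest for Psmb8 at 7.11. HAD2 animal 4 was highest for Phactr3 at 7.61 and Rab22a at 8.72, and lowest for one Rock2 probe set at 10.91 and for Slc38a1 at 8.22. HAD2 animal 5 was highest for Hspa9 at 8.69, Ddx42 at 10.298 and the other Rock2 probe set at 7.61, and lowest for Cldn5 at 10.42. HAD2 animal 3 was highest for Abcb1a at 9.13, Zfp446 at 9.128 and Ncor1 at 9.36. Single values also stood apart for Trak2 (HAD2 animal 8, 11.44), Traf6 (HAD2 animal 9, 7.43), Neu1 (HAD2 animal 7, 7.17), Slc5a7 (HAD2 animal 1, 10.78), Lyve1 (LAD2 animal 19, 6.55), Zfp180 (LAD2 animal 17, 13.02) and Vwf (LAD2 animal 17, 8.93).

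The difference between HAD2 and LAD2 was unequal to that between HAD1 and LAD1 in 91 of 175 named genes at 1 or more of their named probe sets, by limma's interaction test (adjusted p under 0.05). Over all probe sets this held for 948 of 31042 (3.05%). Named genes were chosen mostly by their HAD2 and LAD2 difference, and some by this gap. A high share among them was therefore built in and does not describe the pairs as a whole. In the 8 genes with the largest gaps, the gap was 6.22 for Mx2, 3.41 for Lysmd4, 2.87 for Ptprj, -2.81 for Dguok, -3.05 for Crebl2, -3.17 for Elavl1, -3.34 for Galnt1 and -4.98 for Sgcb.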

How the results depend on the processing

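Of 221 named probe sets none changed direction in any alternative run, and 164 were called in every one that held them. The constant direction was likely from the start. The probe sets were chosen from calls in these same arrays, and some alternatives do not alter the difference. Leaving out each animal in turn kept 200 of the 221 calls; the other 21, among them Scn3a, Pank4, Daglb, Adcyap1, Mag, Tagln, Myh11 and RT1-CE5, lost theirs without at least 1 animal, with adjusted p up to 0.0944 in limma. The count of calls ran from 1273 to 1564 with 1 animal left out, that of calls without overlap from 292 to 326, and that of genes with every probe set called one way from 15 to 24. With 1 probe set per gene, which tests 14217 probe sets, 650 were called (262 higher, 388 lower, 114 without overlap). At an adjusted p under 0.01 there were 841 calls (413 higher, 428 lower), and 7.88% of the genes after a called gene were called. The other alternatives gave between 1147 calls, without LAD2 animals 13, 16 and 18 (chosen after seeing the data), and 1733, with the Gapdh 3' minus 5' signal as a covariate. Without those 3 animals 44 of the named calls were lost, and the cause was not tested. With all 97 arrays in the fit 32 were lost. That fit has a mean for each line, so the HAD2 minus LAD2 difference stays the same. Its SE and p change, because the spread is taken over all the lines. No paired analysis was possible because HAD2 animals are numbered 1 to 10 and LAD2 animals 11 to 20, so that they share no number.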
